A study of Mus musculus with 6 samples.

Results

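The kinesin motor family was examined in M II oocytes of naturally aged mice that had matured in vitro with or without quercetin. Members were taken by name from the table of 53465 genes. Of 47 genes with a symbol that begins with Kif followed by a digit or by c, 43 code for a protein and were kept, and the other 4 are 3 pseudogenes and an antisense RNA. By the known roles of their proteins, 15 members were placed among the motors of the meiotic and mitotic spindle, 17 among the motors that carry cargo and 11 among other genes. The last group includes *Kif1bp*, whose product binds kinesins and is not a motor itself.

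All oocytes came from Kun Ming (KM) mice, an outbred stock, at 9 to 10 months of age, and no gene was altered in either group. Fully grown oocytes freed of cumulus cells matured for 16 h in M16 medium. The control group received no quercetin and the treated group received 10 μM quercetin, a plant flavonol, which had been dissolved in DMSO. Whether the control medium held DMSO in the RNA sequencing is not given in the sources used here. Each group was sequenced as 3 pools, each made of 15 oocytes from 3 mice, so that a value describes a pool and not an oocyte or a mouse. Whether pools shared mice or culture days is not given either, and p-values then measure the spread between these pools only.

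Kinesins are motor proteins that hydrolyse ATP to walk along microtubules or, in some families, to take microtubule ends apart. Oocytes build the meiotic spindle without centrioles, so that motors have to sort microtubules into poles, align chromosomes and, at the close of each division, organise the midzone where the polar body is cut off. Other kinesins carry vesicles, mitochondria and ciliary parts along microtubules. Fully grown oocytes make little new RNA and live on stored mRNA, of which the library kit reads molecules with a poly(A) tail. A change in the amount of an mRNA and a change in its tail therefore cannot be told apart here.

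The pools held 7880467 to 9938743 counts on genes, and 11842 genes passed the filter on low counts and were tested. Among all pairs of pools, none agreed within sampling noise, with chi-square values of 15.4 to 36.3 per gene. Each of 10 oocyte markers, *Zp3* and *Gdf9* among them, was counted, but *Figla* had only 2 to 12 counts per pool and stayed below the filter. Levels are given in CPM (counts relative to library size, scaled by the TMM method). The markers summed to 15500 to 18930 CPM in control pools and to 17350 to 19010 CPM in quercetin pools. Most of this sum came from *Gdf9* and *Oosp1*, and single markers varied more. *Zp2* ran from 131 to 1560 CPM over all pools. *Zp1*, *Zp2* and *Zp3* were lowest in quercetin replicate 1 and next lowest in control replicate 1. Quercetin replicate 3 stood apart from the other 2 treated pools: leaving it out raised the share of all tested genes with an unadjusted p under 0.05 in edgeR's quasi-likelihood test from 4.03% to 13.0%.

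The motor domain of a kinesin binds ATP with a loop called the P-loop, whose coding sequence was sought in every member to show which of the abundant motors share it. It was read from the GENCODE M21 transcripts on GRCm38. A P-loop that begins with glycine, glutamine and threonine, the usual kinesin form, was found in 33 members, and 9 others held only the general form, which fixes the first glycine and the closing glycine, lysine and threonine or serine. *Kif1bp* held neither. The 9 members were *Kif18a*, *Kif18b*, *Kif19a*, *Kif20a*, *Kif20b*, *Kif22*, *Kif23*, *Kif26a* and *Kif26b*, among which are the 4 members with the highest level per length described further on. The sites of 3 of those 4 are printed as 24 bases of the coding strand, 5′ to 3′, with the last 9 bases, which encode the closing glycine, lysine and threonine, in capitals.

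*Kif23*, chr9:61937178-61937201, minus strand, exon 5 of 23: ggcgtgacgggaagtGGAAAAACC
*Kif18a*, chr2:109289690-109289713, plus strand, exon 3 of 17: ggtgccactggatctGGGAAAACT
*Kif20b*, chr19:34929786-34929809, plus strand, exon 5 of 32: ggtctgaccaattctGGAAAAACA

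The same 24 bases are shown for 5 abundant members with the usual form, of which *Kif2c* and *Kif2a* encode depolymerases and *Kif5c* encodes a cargo motor. They can be compared base by base with the sites above.

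*Kif4*, chrX:100633865-100633888, plus strand, exon 3 of 30: gggcagactggatctGGAAAAACG
*Kif2c*, chr4:117167297-117167320, minus strand, exon 11 of 20: ggacagacaggcagtGGGAAGACA
*Kif2a*, chr13:106979480-106979503, minus strand, exon 10 of 21: gggcagactggaagtGGGAAAACT
*Kif11*, chr19:37384736-37384759, plus strand, exon 4 of 22: ggtcagactggcactGGAAAAACT
*Kif5c*, chr2:49680203-49680226, plus strand, exon 3 of 26: gggcagacttcatcaGGAAAAACT

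Genes that are switched on late in the cell cycle often carry a short element near their start, the cell cycle genes homology region, with the letters TTTGAA. The letters were searched on both strands (TTCAAA on the other strand), from 250 bases before to 50 bases after the start, in RefSeq promoters on GRCm38.p6, which matched 33 of the 43 members. They occurred in 11 of 14 spindle kinesins (78.6%), in 1 of 11 transport kinesins (9.09%, *Kif1a*) and in 2 of 8 others (25.0%, *Kif26b* and *Kif27*). Among all genes with a promoter of this length, 5466 of 27025 held them (20.2%). The spindle kinesins without the letters in this window were *Kif18a*, *Kif2a* and *Kif2b*. A match is a description of sequence and does not show that a factor binds there. The windows of 8 spindle kinesins follow, each of 30 bases in the direction of the gene, with a match to the letters in capitals, to show its surroundings. In the *Kif20b* window another copy follows directly in lower case. The first base of the printed match lay 228 and 103 bases before the start in *Kif14* and *Kif2c*, and within 19 bases of the start in the others.

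*Kif23*, chr9:61946780-61946809, minus strand: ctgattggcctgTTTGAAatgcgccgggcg
*Kif20b*, chr19:34922353-34922382, plus strand: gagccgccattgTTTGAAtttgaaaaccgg
*Kif4*, chrX:100626072-100626101, plus strand: ctctgggatcaaTTTGAAacttggcggtta
*Kif2c*, chr4:117178858-117178887, minus strand: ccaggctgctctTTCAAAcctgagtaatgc
*Kif11*, chr19:37376351-37376380, plus strand: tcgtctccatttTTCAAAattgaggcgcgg
*Kif14*, chr1:136467608-136467637, plus strand: ggaggtcctgtcTTTGAAgtctgcagtgtc
*Kif22*, chr7:127042420-127042449, minus strand: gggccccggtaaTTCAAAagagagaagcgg
*Kifc1*, chr17:33890615-33890644, minus strand: cggaggttgaaaTTCAAAagtggcgggtgt

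*Kifc1* encodes the minus-end motor that draws microtubules together at spindle poles, and *Kifc5b* is a near copy of it elsewhere on the same chromosome. Their coding sequences of 2022 and 2016 bases share 1984 bases in matched blocks, which is 98.1% of *Kifc1*, with an identical run of up to 268 bases. Of all 31-base words in the transcripts, 57.2% of *Kifc1* and 51.6% of *Kifc5b* occur in another gene, against at most 6.56% in every other member. The 120 coding bases below are shown because they hold 5 of the few differences, in capitals, by which reads of the genes can be told apart.

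*Kifc1*, chr17:33886768-33886887, minus strand, exon 2 of 11: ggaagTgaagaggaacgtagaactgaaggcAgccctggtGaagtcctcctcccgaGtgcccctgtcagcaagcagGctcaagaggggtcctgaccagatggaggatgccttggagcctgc
*Kifc5b*, chr17:26920808-26920927, plus strand, exon 2 of 11: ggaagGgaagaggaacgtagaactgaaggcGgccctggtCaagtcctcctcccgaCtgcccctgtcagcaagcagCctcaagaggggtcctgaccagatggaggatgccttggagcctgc

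Spindle members took most of the counts on the kinesin genes. The shares here are of counts, without regard to gene length, and leave out *Cenpe*, a kinesin without a Kif symbol. Kinesin genes took 0.299% ± 0.0110 of all counts without and 0.314% ± 0.0163 with quercetin (SD, n = 3 each). Of these kinesin counts, spindle members held 84.0% ± 1.70 without and 86.4% ± 1.32 with quercetin, and transport members held 15.1% ± 1.61 and 12.9% ± 1.18. The pools of the groups overlapped in each of these shares. Of all counts, spindle members took 0.251% ± 0.00507 without and 0.271% ± 0.0117 with quercetin (SD, n = 3 each). In this share the pools of the groups did not overlap, and it was not tested. Transport members took 0.0452% ± 0.00633 and 0.0406% ± 0.00533 of all counts, with pools that overlapped. Of the 43 members, 6 had no count in any pool (*Kif1a*, *Kif5a*, *Kifc2*, *Kif2b*, *Kif7* and *Kif12*), which in one pool allows a level of up to 0.302 to 0.381 CPM by unscaled library size, the level of 3 counts. This limit covers counting error only. *Kif1a* and *Kif5a* are best known as motors of nerve cells. Another 8 were counted but stayed below the filter, and 29 were tested, comprising 13 spindle, 11 transport and 5 other genes.

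Levels were compared between genes as CPM per kilobase of exon, and the range over all 6 pools is given. *Kif23* (ENSMUSG00000032254, GRCm38 chr9:61915905-61946774, minus strand) encodes the motor of centralspindlin, which bundles midzone microtubules for cytokinesis. It stood first at 101 to 123 CPM per kilobase, above every other member in all pools. *Kif18a* (ENSMUSG00000027115, chr2:109280738-109341747, plus strand), a kinesin-8 that limits chromosome swings at the metaphase plate, ran from 46.9 to 80.2. *Kif20a*, on chromosome 18, brings the chromosomal passenger complex to the midzone and ran from 45.3 to 60.0 CPM per kilobase. For *Kif20b*, a motor of late cytokinesis, the range was 39.9 to 56.9. The ranges of these last 3 overlap, so their order is not resolved by the spread between pools.

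Next by mean level came *Kif4* (23.97 to 33.0 CPM per kilobase), a chromokinesin that works with Prc1, *Kif2c* (21.9 to 35.1), a depolymerase at centromeres, and *Kif2a* (5.06 to 44.9), a depolymerase at spindle poles. *Kif3a*, a subunit of kinesin-2, and *Kif5b*, a heavy chain of kinesin-1, were the highest of the transport kinesins at 11.4 to 25.1 and 12.3 to 19.7 CPM per kilobase. The motor that pushes spindle poles apart, *Kif11*, had 7.69 to 10.4. *Kif15*, known to share the work of *Kif11* in dividing cells, was far lower at 0.148 to 0.620 CPM per kilobase. *Kifc1* was low as well, at 0.225 to 0.483. It had 10, 9 and 13 counts in the control pools and 10, 7 and 14 counts in the quercetin pools. *Kifc5b* had 6, 5 and 2 counts in the controls and 3, 2 and 11 counts after quercetin, and was not tested. Since these genes share so much sequence and the treatment of reads that match several genes is not given in the sources used here, these counts are uncertain.

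**Figure D1:**
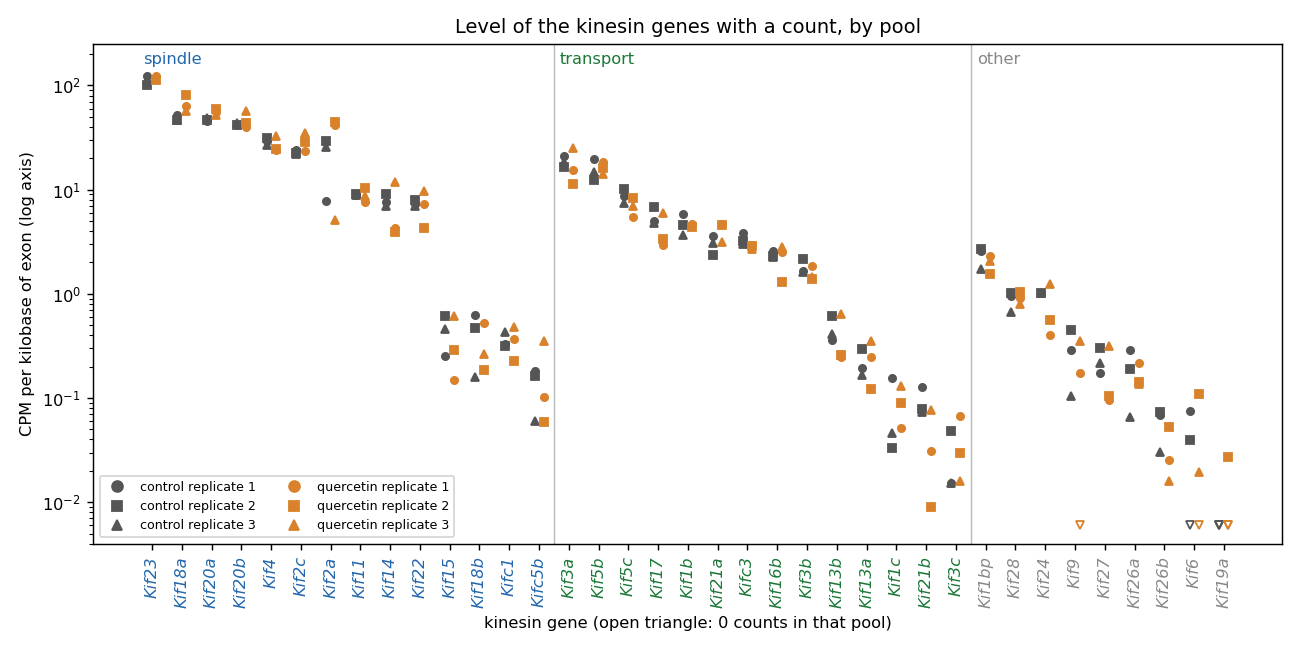
Level of each kinesin gene with a count, in CPM per kilobase of exon on a log axis, with 1 marker per pool (grey control, orange quercetin, and circle, square and triangle for replicates 1, 2 and 3). *Kif23* lies above every other member in all 6 pools, and the open triangles at the foot mark pools with 0 counts.

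The comparison of the groups asked whether motor mRNAs differed after maturation with quercetin. None of the 29 tested kinesin genes met the criteria of the study, a fold change over 2 with an adjusted p under 0.05, and 0.0% of all tested genes did. Adjusted p of the family ranged from 0.988 to 0.9996 in edgeR's quasi-likelihood fit (Benjamini-Hochberg). By edgeR's likelihood ratio test and by DESeq2 the count of kinesins was 0 too. At an unadjusted p under 0.05, 1 of the 29 was found (*Kif18a*, with the higher values in quercetin), beside 4.03% of all tested genes, 2.14% with higher and 1.89% with lower values. Values were higher with quercetin in 10 and lower in 19 of the tested members, with a median log2 fold change (quercetin over control) of -0.09, against -0.03 for all tested genes. Of all tested genes, 5490 were higher and 6352 lower. Among spindle kinesins 6 values were higher and 7 lower (median -0.0012), and among transport kinesins 3 were higher and 8 lower (median -0.10). With single pools left out, the transport median ran from -0.01 (without quercetin replicate 2) to -0.25 (without quercetin replicate 3). Among the 5 other genes 1 was higher and 4 were lower (median -0.24).

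**Figure D2:**
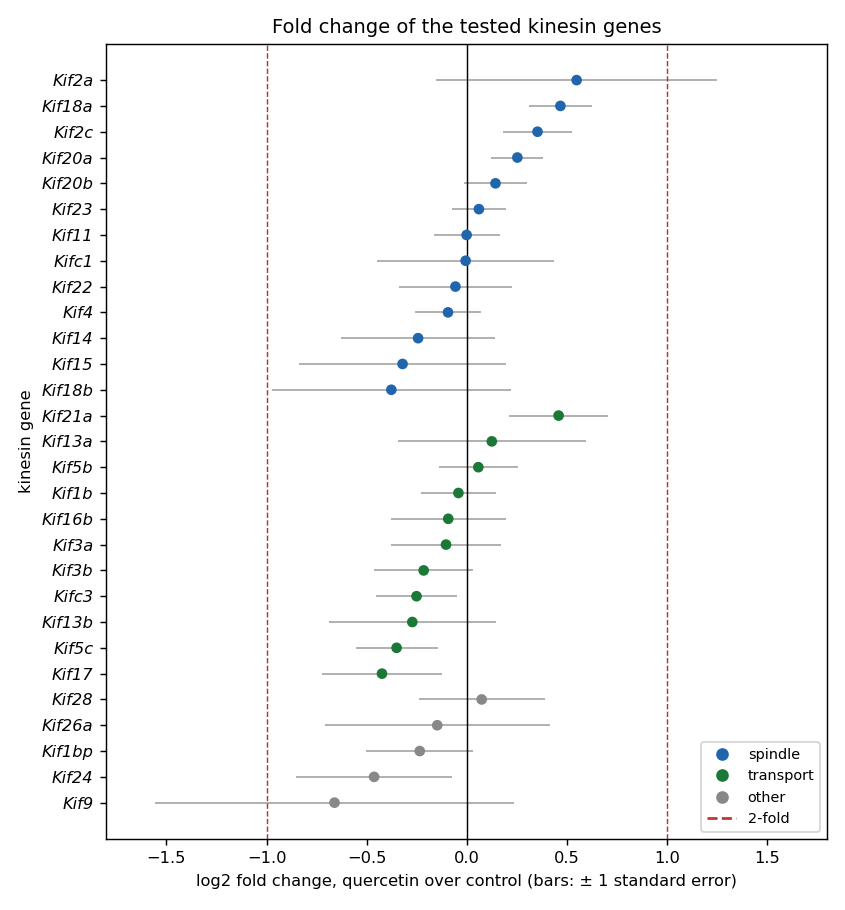
Log2 fold change (quercetin over control) of the 29 tested kinesin genes with bars of 1 standard error, ordered within the spindle (blue), transport (green) and other (grey) groups. All points lie between the dashed lines at a 2-fold change, and *Kif2a* and *Kif9* have the longest bars among the highest and lowest values.

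*Kif18a* had the smallest p of the family. Control pools 1 to 3 were at 508, 461 and 462 CPM, and quercetin pools 1 to 3 at 630, 789 and 559 CPM. Every quercetin pool lay above every control pool, by TMM scaling and by library size alone, and replicate 2 was the highest. The means were 477 ± 26.8 and 659 ± 118 CPM (SD, n = 3 each). The log2 fold change was 0.47 with a standard error of 0.16, with an unadjusted p of 0.0161 and an adjusted p of 0.988 in edgeR's quasi-likelihood fit (Benjamini-Hochberg). Of the kinesin counts, *Kif18a* took 16.4% ± 0.485 without and 20.3% ± 3.01 with quercetin (SD, n = 3 each). In pools of whole oocytes, fewer cells with an mRNA and less of it per cell cannot be told apart. *Kif18a* kept an unadjusted p under 0.05 in edgeR when control replicate 1, control replicate 3, quercetin replicate 1 or quercetin replicate 3 was left out, and lost it without control replicate 2 or quercetin replicate 2. Without control replicate 2, 0 kinesins had such a p (1.92% of all tested genes). Without quercetin replicate 1, *Kif2c* joined *Kif18a* (2 of 29, beside 3.02% of all tested genes). Without quercetin replicate 2, *Kif5c* was the 1 kinesin with such a p (2.71% of all tested genes).

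*Kif20a* was the other spindle kinesin whose groups did not overlap. It stood at 197, 202 and 210 CPM in control oocytes and at 240, 260 and 225 CPM in treated oocytes. The log2 fold change was 0.25 with a standard error of 0.13, with an unadjusted p of 0.0852 and an adjusted p of 0.988 in edgeR's quasi-likelihood fit (Benjamini-Hochberg). On the opposite strand, *Cdc23*, which encodes a subunit of the anaphase-promoting complex, covers 29.3% of the exon length of *Kif20a*, and whether counting used the strand is not given in the sources used here. *Cdc23* was at 78.7 ± 2.22 and 80.9 ± 15.2 CPM (SD, n = 3 each), with groups that overlapped. Groups of pools did not overlap in 2 tested kinesins with the higher values in quercetin (5.42% of all tested genes) and in 1 with the lower values (5.17% of all tested genes).

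The lower one was *Kifc3* (ENSMUSG00000031788, chr8:95099828-95202812, minus strand), a minus-end motor known from cell junctions and placed among the transport kinesins. It had 20.5, 17.0 and 15.98 CPM without quercetin and 15.5, 15.1 and 14.2 CPM with it. The gap between the closest pools was small beside the spread of the control pools. The log2 fold change was -0.25 with a standard error of 0.20 and an unadjusted p of 0.246 in edgeR's quasi-likelihood test.

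A list of 12 cumulus and granulosa markers differed between the groups in its sum, but not in every member. Its summed level ran from 70.5 to 86.3 CPM in control and from 91.7 to 97.0 CPM in quercetin pools, without overlap. Most of it came from *Cyp19a1* and *Kitl*, while *Foxl2*, *Amh*, *Amhr2* and *Ptx3*, 4 of the 12, were at 0 in every pool. Of the remaining markers, all at low levels, *Fshr* and *Ptgs2* had lower means with quercetin. *Has2*, *Inha*, *Inhba* and *Tnfaip6* had higher means there. The oocyte list given above overlapped between the groups, as did 7 blood and stroma markers, with 2.89 to 3.38 CPM in control and 1.32 to 4.002 CPM in quercetin pools and 3 of the 7 at 0. The part of these cells in the values of *Kif18a*, *Kif20a* and *Kifc3* was not tested.

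**Figure D3:**
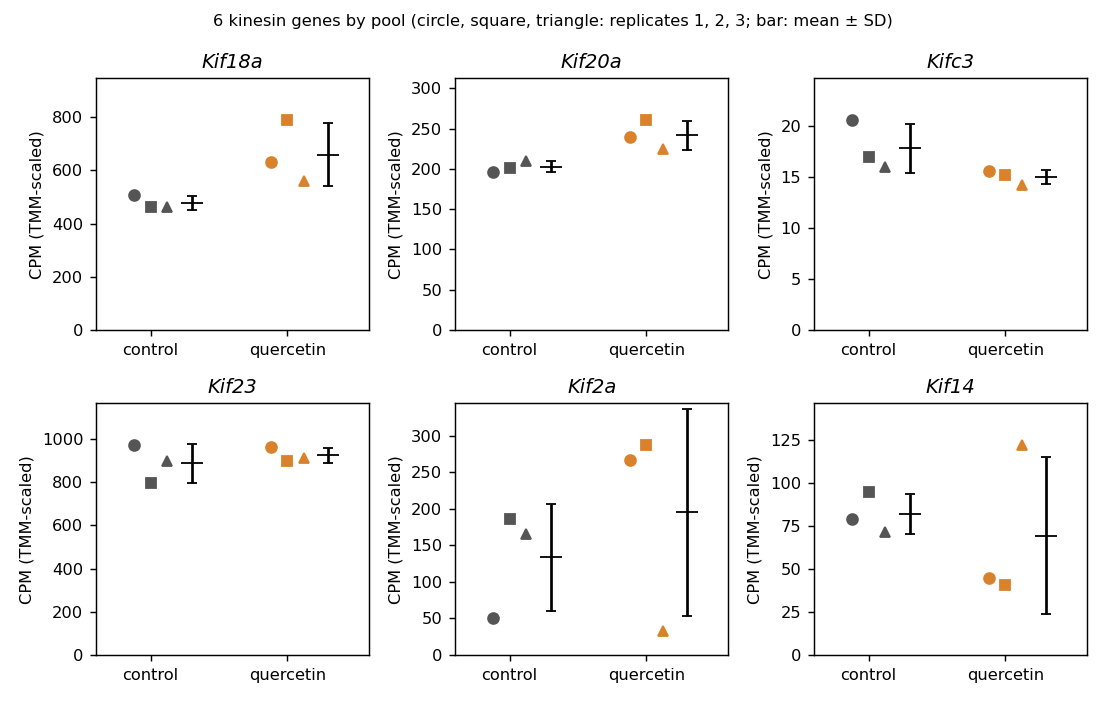
CPM of 6 kinesin genes in each pool (circle, square and triangle for replicates 1, 2 and 3), with the mean and SD of the 3 pools of each group, on axes that start at 0. The groups do not overlap for *Kif18a*, *Kif20a* and *Kifc3*, they overlap for *Kif23*, and 1 quercetin pool lies far from the other 2 for *Kif2a* and *Kif14*.

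The most abundant spindle motor did not differ beyond its spread. *Kif23* was at 971, 794 and 897 CPM in the controls and at 965, 898 and 912 CPM after quercetin. The groups overlapped, and the log2 fold change was 0.06 with a standard error of 0.13 (a sign that scaling by library size alone turned to -0.02). *Kif20b* had 291, 292 and 302 CPM in control oocytes and 277, 304 and 396 CPM in treated oocytes, with replicate 3 the highest of all. *Kif4* had 160, 172 and 149 CPM without quercetin and 132, 136 and 182 CPM with it, so that the treated pools lay on both sides of the controls. Its log2 fold change was -0.09, and -0.26 without quercetin replicate 3. *Pdzd11* covers 15.1% of the exon length of *Kif4* on the opposite strand. *Kif11* had a log2 fold change of -0.0012 with a standard error of 0.17.

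The depolymerases of the kinesin-13 family varied in different ways. *Kif2a* (ENSMUSG00000021693, chr13:106958996-107022126, minus strand), chosen after its values were seen, was at 50.1, 186 and 166 CPM in the controls and at 267, 287 and 32.4 CPM after quercetin. Its highest pool was 8.87-fold above its lowest, against a median of 1.93 for the tested kinesins and 1.86 for all tested genes. Low pools occurred in both groups, namely control replicate 1 and quercetin replicate 3. The log2 fold change was 0.55 with a standard error of 0.70, and it was 0.15 to 1.05 with single pools left out, the highest of these without quercetin replicate 3. *Dimt1* overlaps 19.2% of the exon length of *Kif2a* from the opposite strand and was at 22.2 ± 4.76 and 36.6 ± 5.001 CPM (SD, n = 3 each). Every quercetin pool of *Dimt1* lay above every control pool, with a log2 fold change of 0.72 and a standard error of 0.22. The part of *Dimt1* reads in the counts of *Kif2a* was not tested. *Kif2c* was at 104, 97.5 and 95.7 CPM in control oocytes and at 102, 125 and 153 CPM in treated oocytes, with an unadjusted p of 0.0729 in edgeR's quasi-likelihood test and a log2 fold change of 0.35. *Kif2b* had no count.

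Quercetin replicate 3 differed from the other treated pools in many kinesins. It was the highest of the 6 pools in 12 of the 29 tested members (41.4%, against 17.98% of all tested genes), and in 7 of the 13 spindle members. Quercetin replicates 1 and 2 both lay below the other 4 pools in 6 members (20.7%), not far above the 14.7% of all tested genes. Among spindle members this held for 2 of the 13 (15.4%). *Kif14* (ENSMUSG00000041498, chr1:136466343-136531511, plus strand), a motor of cytokinesis chosen after its values were seen, shows the pattern. It was at 79.1, 94.9 and 71.7 CPM without quercetin and at 44.7, 40.9 and 122 CPM with it. The lowest and the highest values of the gene were thus both in treated pools.

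With all pools the log2 fold change of *Kif14* was -0.24 with a standard error of 0.38. Without quercetin replicate 3 it was -0.94 with a standard error of 0.18 and an adjusted p of 0.180 in edgeR's quasi-likelihood fit (Benjamini-Hochberg). In that fit 8 of the 29 kinesins had an unadjusted p under 0.05, beside 13.0% of all tested genes. *Kif18a*, *Kif20a* and *Kif21a* were higher with log2 fold changes of 0.57, 0.30 and 0.62, and *Kif14*, *Kif24*, *Kif17*, *Kif13b* and *Kif3a* were lower with -0.94, -1.06, -0.80, -0.86 and -0.47. With all pools, the log2 fold changes of *Kif24*, *Kif17*, *Kif13b* and *Kif3a* were -0.46, -0.42, -0.27 and -0.10, and that of *Kif21a* was 0.46. Without quercetin replicate 3, the adjusted p of these 8 kinesins ran from 0.180 to 0.376 in edgeR's quasi-likelihood fit (Benjamini-Hochberg), so that none passed. The direction of *Kif20b* turned to -0.02 in the same fit. What sets this pool apart was not tested.

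**Figure D4:**
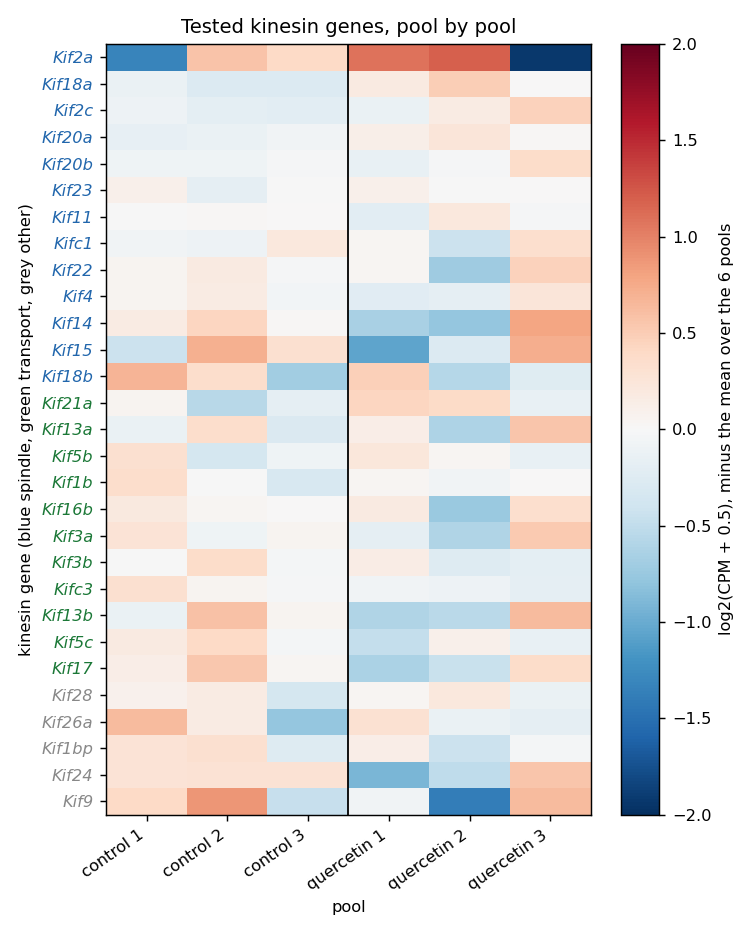
Log2(CPM + 0.5) of each tested kinesin gene (rows) in each pool (columns), minus its mean over the 6 pools, with red above and blue below the mean. Quercetin replicate 3 is red where replicates 1 and 2 are blue in rows such as *Kif14*, *Kif24*, *Kif17* and *Kif3a*, and *Kif2a* has the widest range.

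The 5 transport kinesins with the highest levels per length are given by pool. *Kif3a* was at 76.0, 59.2 and 65.4 CPM in the controls and at 55.4, 41.0 and 90.2 CPM after quercetin. *Kif17*, a kinesin-2 of cilia and dendrites, was at 23.1, 30.9 and 21.7 CPM in control oocytes and at 13.4, 15.5 and 27.5 CPM in treated oocytes. In both genes, treated replicates 1 and 2 were below all controls and treated replicate 3 was not. The groups also overlapped for the heavy chains of kinesin-1, *Kif5b* and *Kif5c*. *Kif5b* had 157, 97.7 and 118 CPM without quercetin and 146, 128 and 113 CPM with it, and its log2 fold change of 0.06 became -0.03 with scaling by library size alone. *Kif5c* had 62.3, 72.5 and 53.2 CPM in the controls and 39.2, 58.8 and 49.3 CPM after quercetin, with a log2 fold change of -0.35 and a standard error of 0.20, or -0.50 without quercetin replicate 2. *Kif1b*, whose product carries mitochondria and synaptic vesicle precursors, had 102, 80.1 and 64.6 CPM in control oocytes and 82.7, 76.5 and 80.6 CPM in treated oocytes. *Kif21a*, chosen after its values were seen for the highest log2 fold change among transport kinesins, was at 0.46 with a standard error of 0.25 and an unadjusted p of 0.0947 in edgeR's quasi-likelihood test, and its groups overlapped.

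The remaining tested members were *Kif22*, *Kif15*, *Kif18b* and *Kifc1* among spindle kinesins, *Kif16b*, *Kif3b*, *Kif13a* and *Kif13b* among transport kinesins, and *Kif24*, *Kif1bp*, *Kif28*, *Kif9* and *Kif26a* among the others. Their log2 fold changes ran from -0.66 (*Kif9*) to 0.12 (*Kif13a*), and the groups overlapped in each. *Kif9* had 11, 16 and 4 counts without quercetin and 6, 0 and 13 counts with it. Counts as low as these leave wide errors, with a standard error of 0.89 on the log2 scale for *Kif9*. Members counted below the filter were *Kif1c*, *Kif21b*, *Kif3c*, *Kif27*, *Kif26b*, *Kif6*, *Kif19a* and *Kifc5b*, none of which had more than 14 counts in any pool.

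Genes whose products work with kinesins were counted in 3 lists, in which no gene was called. Among 16 spindle partners, all tested, 8 values were higher and 8 lower with quercetin (median log2 fold change 0.03), and 1 had an unadjusted p under 0.05 in edgeR's quasi-likelihood test, beside 4.03% of all tested genes. This was *Tpx2*, which nucleates spindle microtubules and activates Aurora A, at 446, 438 and 428 CPM in the controls and 565, 603 and 504 CPM after quercetin (log2 fold change 0.35, standard error 0.13). All treated pools lay above all controls. The treated pools were also above the controls for *Prc1*, *Aurka* and *Cdca8*, but these 3 overlapped with scaling by library size alone. *Prc1*, a microtubule bundler, had 452 ± 67.2 and 565 ± 22.5 CPM (SD, n = 3 each). *Aurka* encodes Aurora A and *Cdca8* a subunit of the chromosomal passenger complex that the product of *Kif20a* moves. *Numa1*, a protein of spindle poles, had lower values in every quercetin pool, at 24.4 ± 1.19 and 21.5 ± 1.95 CPM (SD, n = 3 each). Groups without overlap were thus 4 of 16 with the higher and 1 of 16 with the lower values in quercetin, beside 5.42% and 5.17% of all tested genes.

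*Racgap1*, whose product pairs with that of *Kif23* in centralspindlin, was at 141, 127 and 136 CPM in control oocytes and at 162, 130 and 150 CPM in treated oocytes, with groups that overlapped. *Cenpe* encodes a kinetochore kinesin that does not bear a Kif symbol and was at 555, 564 and 528 CPM without quercetin and at 412, 499 and 602 CPM with it. As in *Kif14*, replicate 3 was the highest of the treated pools and of all.

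Of 18 light chains and cargo adaptors 11 were tested, with 7 values higher and 4 lower (median 0.06), and 3 of the 18 had no count. *Madd*, an adaptor of *Kif1b*, had 20, 20 and 20 counts in the controls and 31, 28 and 36 counts after quercetin. The treated pools were the higher ones, with a log2 fold change of 0.69, a standard error of 0.30 and an unadjusted p of 0.0473 in edgeR's quasi-likelihood test. Dynein is a minus-end motor, which walks along microtubules the other way from most kinesins. Of 19 dynein and dynactin genes 18 were tested, with 7 values higher and 11 lower (median -0.05). *Nde1*, a dynein regulator, was at 48.3, 42.0 and 47.4 CPM in control oocytes and 72.9, 60.0 and 60.7 CPM in treated oocytes, above the controls throughout, with a log2 fold change of 0.49, a standard error of 0.17 and an unadjusted p of 0.0159 in edgeR's quasi-likelihood test. Groups also did not overlap for *Dynlt3*, a dynein light chain with the higher values in quercetin (log2 fold change 0.30), nor for the light chain *Dynll2* (-0.50) and the dynactin subunit *Dctn4* (-0.37), with the lower values there. Of the 18 tested genes, 2 were higher and 2 lower without overlap, beside the same 5.42% and 5.17% of all tested genes. *Madd* and *Nde1* were each the 1 gene of their list with an unadjusted p under 0.05 in edgeR (4.03% of all tested genes). The adjusted p of each gene named from these lists was 0.988 in edgeR's quasi-likelihood fit (Benjamini-Hochberg).

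**Figure D5:**
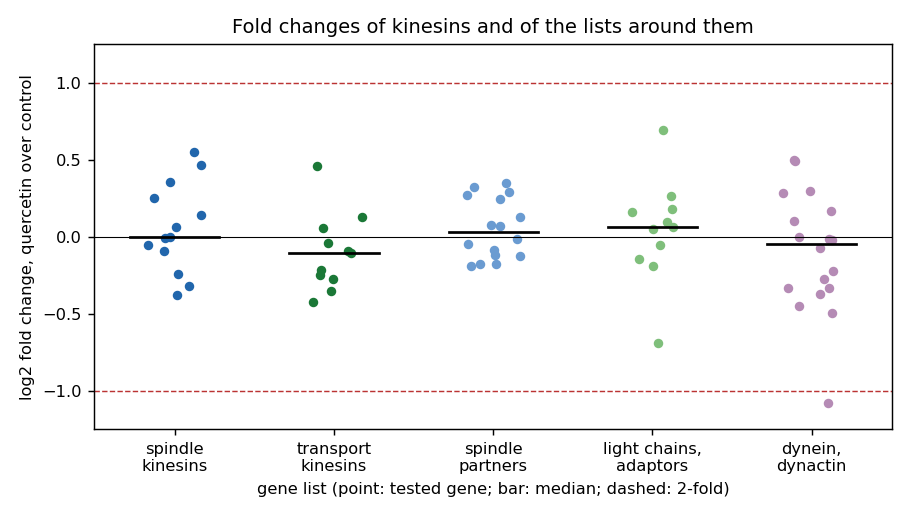
Log2 fold change (quercetin over control) of each tested gene in the spindle and transport kinesins and in the 3 lists of partners, with the median of each as a bar and a 2-fold change as dashed lines. The medians lie between -0.10 and 0.06, and only *Dync1h1*, at -1.08 with 1 to 14 counts per pool, lies beyond a dashed line.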

How the data were processed

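The 6 pools of M II oocytes, 3 per group, were sequenced from libraries of the smart-seq HT Kit. The authors deposited counts, the unnormalised number of reads per Ensembl gene and pool. Hisat2 and GRCm38.91 are named in the paper, whereas the submitters' processing notes list CASAVA 1.8, TopHat2 2.0.6 and mm10 (GRCm38). The counting program and its settings for strand and for reads matching several genes are not given in the sources used here. Groups and replicate numbers came from the sample labels. Age, dose and the size of the pools are those of the paper's methods.

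Symbols were paired with 53274 identifiers through GENCODE M21 on GRCm38. Counts were scaled by TMM (factors 0.920 to 1.06), filtered with filterByExpr (minimum count 10; 11842 of 24476 genes with a count) and compared by the quasi-likelihood test of edgeR 4.0.16 in R 4.3.3, and p-values were adjusted over every tested gene (Benjamini-Hochberg). Standard errors are the size of the log2 fold change over the square root of F. The fit was tested on simulated data. Alternatives were the likelihood ratio test, DESeq2 1.42.0, other scalings and filters, adjusted p without a fold criterion, single pools left out and a replicate block.

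Named members were, in the spindle and transport groups, the 5 tested genes highest per kilobase, then any with an unadjusted p under 0.05, with groups that do not overlap, or with over 10% of the transcript shared, and of the partner lists those with such a p or without overlap. Other names were added after values were seen. Some items are not reported here. The members and lists were chosen with earlier results of these data known.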

Additional observations from a re-analysis of the deposited data

How the results depend on the processing

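The number of kinesins called was 0 under every alternative run, also without a fold criterion, and the number at an unadjusted p under 0.05 was 1 under each alternative that kept all pools. With single pools left out that number ran from 0 (without control replicate 2) to 8 (without quercetin replicate 3), and the median log2 fold change of spindle kinesins ran from -0.0207 to 0.16, the highest without quercetin replicate 2. *Kif18a* ran from 0.37 to 0.49 over the alternatives with all pools and from 0.32 to 0.57 with single pools left out. Values near 0 changed sign: *Kifc1* was at 0.0195 with DESeq2, 0.011 with DESeq2 size factors and 0.0037 without a filter, and with library size only *Kif23* was at -0.0229 and *Kif5b* at -0.0314. That scaling moved the median of all genes from -0.03 to -0.11. With single pools left out, the sign also changed for *Kif1b* (-0.18 to 0.14), *Kif23* (-0.0137 to 0.13), *Kif5b* (-0.0882 to 0.26), *Kifc1* (-0.28 to 0.25), *Kif3a* (-0.47 to 0.12), *Kif14* (-0.94 to 0.0252) and *Kif20b* (-0.0207 to 0.25). The cause was not tested. Of 234 alternative values, 216 kept their direction and their side of the threshold or, for medians and counts, moved by less than 1 SD between pools or 1.5 times. The spindle median lay between -0.07 and 0.05 over the alternatives with all pools. Across all genes, 0 were called by the quasi-likelihood test, 16 by the likelihood ratio test, 11 by DESeq2, 3 without a filter, and between 0 and 6 with single pools left out.

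With the replicate number as a block, 0 kinesins were called and 1 had an unadjusted p under 0.05, with medians of -0.01 for spindle and -0.17 for transport kinesins, 0.45 for *Kif18a*, 0.32 for *Kif2a* and -0.43 for *Kif14*. Deviations from the group means correlated at 0.296, 0.101 and -0.0303 between pools of the same number. The first was the highest among all pairs of a control and a quercetin pool. Control replicate 2, however, correlated better with quercetin replicate 3 (0.176) than with its own number. These few values do not decide whether the pools were paired. The study does not describe them as paired, so the main fit did not take the numbers as pairs.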

Other observations

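The 4 symbol matches that do not code for a protein were counted at low levels. *Kif16bos*, the antisense RNA beside *Kif16b*, had 5, 0 and 2 counts without quercetin and 6, 1 and 2 with it. *Kif4-ps*, a pseudogene of *Kif4*, had 3, 7 and 10 counts in control and 1, 7 and 3 counts in quercetin pools. *Kifc5c-ps*, which shares sequence with *Kifc1* and *Kifc5b*, had 1, 6 and 5 counts in control and 2, 2 and 1 counts in quercetin pools, and *Kif22-ps* had 1 count in control replicate 2. Another gene that shares sequence with *Kifc1*, *Gm20763*, had 55, 40 and 40 counts in control and 52, 37 and 38 counts in quercetin pools, more than *Kifc1* in every pool.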
